A study of Homo sapiens with 16 samples.

Results

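The keratin window on chromosome 12 was taken as all MED1 peaks that overlap chr12:52500000-53400000 (hg19) in any of 6 deposited peak lists. It holds the positions of KRT80, KRT7, KRT8 and KRT18, and 72 of the 3464 peaks of the 6 lists fell in it. The window was chosen by its position and, with these lists known, by the peaks listed in it, so the number of peaks in it and the bases they cover describe the choice and are no finding. KRT80, KRT7 and KRT8 encode type II keratins, whereas KRT18 encodes a type I keratin, so the name "type II keratin locus" covers 3 of the 4 genes.

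The data are ChIP-seq profiles of the Mediator subunit MED1 in HCT116, a human colorectal carcinoma cell line. The edited line has the genotype OsTir1+/-;Med14-AID+/+. It carries an auxin-inducible degron on the Mediator subunit MED14 and the plant F-box protein OsTIR1, which together let auxin send MED14 to the proteasome. In that line 4 conditions were profiled, with 1 MED1 library and 1 peak list each. These were 500 µM auxin (IAA) for 3 h followed by Nutlin-3a for 1 h, auxin for 3 h alone, water (mock) for 3 h followed by Nutlin-3a for 1 h, and water for 3 h alone. All 4 carry the tag and OsTIR1, the water controls included. Whether the line is 1 clone is not given in the sources used here, nor is the dose of Nutlin-3a. Wild-type (WT) cells received Nutlin-3a or DMSO (mock) for 1 h, and each WT list belongs to 2 MED1 libraries. Nutlin-3a keeps p53 away from its inhibitor MDM2 and so raises p53 activity. The study asked how MED1 occupancy depends on MED14 and on p53 induction.

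Keratins are the intermediate filament proteins of epithelial cells. Each filament is built from heterodimers of a type I and a type II keratin, and the genes of each type lie in a cluster, the type II genes on chromosome 12 and most type I genes on chromosome 17. KRT8 and KRT18 are the partner keratins of simple epithelia such as the gut lining, KRT7 belongs to ductal and glandular epithelia, and KRT80 is an epithelial keratin found near cell junctions. Mediator bridges transcription factors at enhancers and RNA polymerase II at promoters, with MED14 as its central scaffold, and broad or clustered MED1 signal is commonly used to mark strong enhancers.

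No genome sequence of the build of the peaks was at hand, so the bases under the peaks are not shown. Of the 4 genes, KRT8 alone had an entry in the RefSeq promoter table (GRCh38.p14), chromosome 12, 52926420 to 52926719, minus strand. It is shown because KRT8 is a named member, but it is on another build, and whether a MED1 peak covers it was not determined. Capitals mark every match, on either strand, to the 7 motifs searched.
KRT8: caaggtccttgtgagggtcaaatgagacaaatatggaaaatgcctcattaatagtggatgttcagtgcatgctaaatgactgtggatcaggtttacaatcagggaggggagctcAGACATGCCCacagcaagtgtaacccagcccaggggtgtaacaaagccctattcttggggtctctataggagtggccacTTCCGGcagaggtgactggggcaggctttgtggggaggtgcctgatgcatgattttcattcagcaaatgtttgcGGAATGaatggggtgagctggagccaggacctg
The capitals hold a match to the p53 decamer from base 115, a match to the ETS letters CCGGAA, here on the opposite strand, from base 194, and a match to the TEAD letters GGAATG from base 268, counted from 1 at the 5′ end. These matches do not overlap. Among 35116 RefSeq promoters of 300 bases, 6.63% held the p53 decamer, 17.2% the ETS letters and 14.0% the TEAD letters. The AP-1 letters TGANTCA (7.71% of promoters), the GC box GGGCGG (45.0%), the TATA letters TATAAA (11.5%) and the E-box CACGTG (7.26%) had no match in this window. The matches describe letters and are not binding sites.

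MED1 was listed at 28 merged regions of the window, made by joining overlapping peaks of all lists and numbered 1 to 28 along the chromosome. The list with auxin and Nutlin-3a had 2 peaks there, auxin alone 1, water with Nutlin-3a 13, water alone 15, WT Nutlin-3a 24 and WT DMSO 17. The whole lists held 66 peaks with auxin and Nutlin-3a, 53 with auxin, 522 with water and Nutlin-3a, 463 with water, 1254 in WT cells with Nutlin-3a and 1106 with DMSO. The lists give no read totals, so the depth behind each is unknown, and no spread between replicates can be set against any difference between conditions. Values between conditions are therefore given side by side, without a test. The fold used throughout is the enrichment over background that the authors' peak caller gave for each peak, and −log10 q is its measure of confidence. Folds rank peaks within a list and are not on a scale shared between lists.

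**Figure D1:**
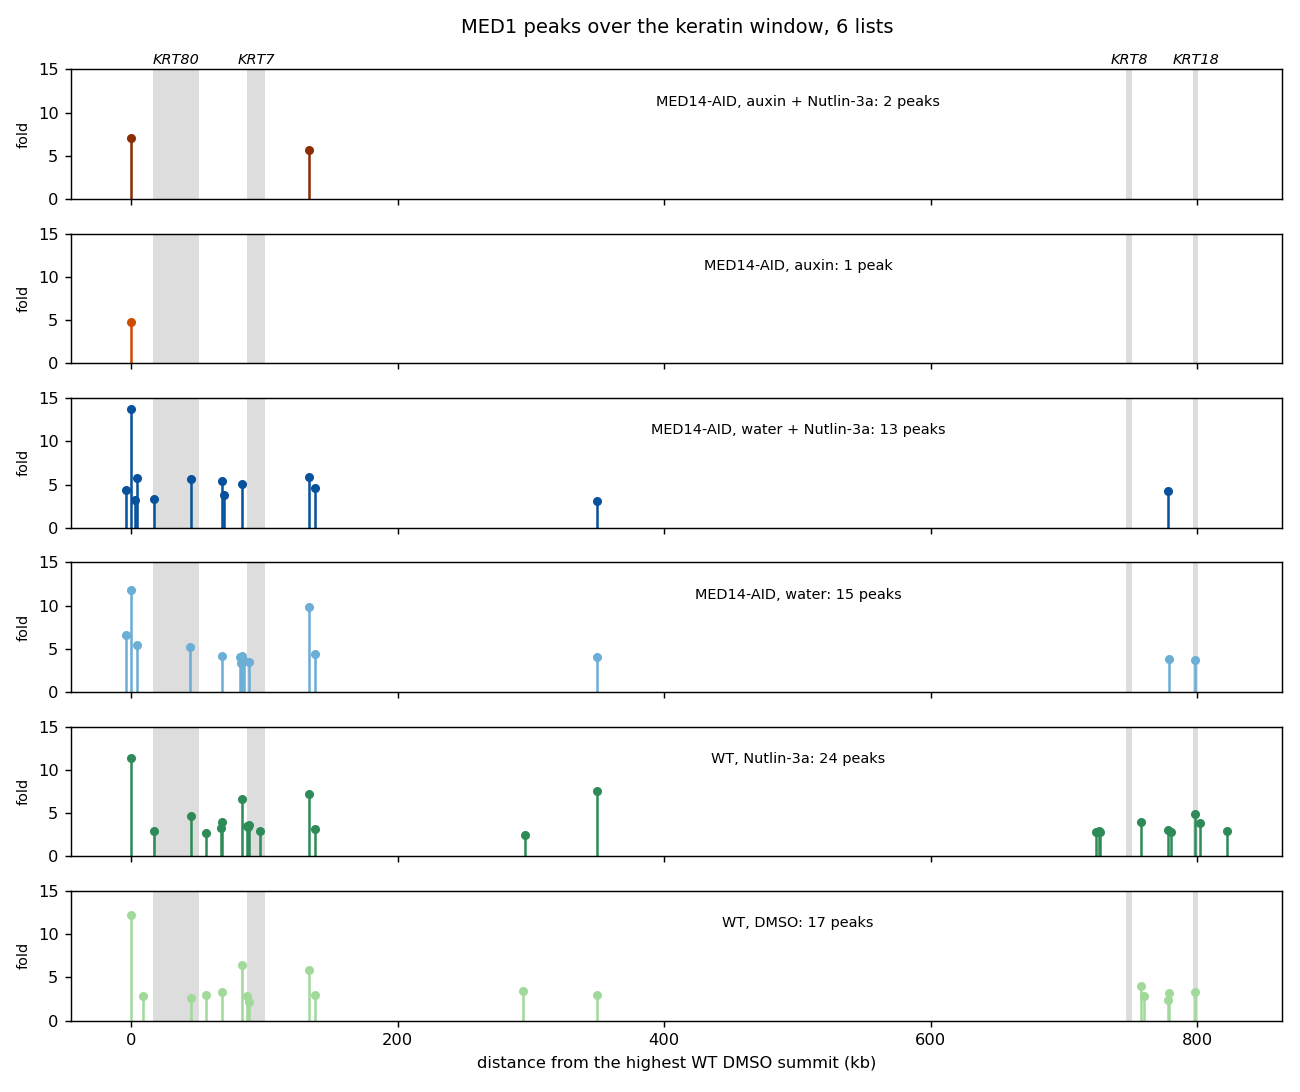
Summits of the 72 peaks of the keratin window, with 1 panel per list. The x axis is the distance in kb from the WT DMSO summit with the highest fold, the y axis is the authors' fold, and grey bands, widened so that they can be seen, mark the gene positions. The highest peak of every list stands at 0 kb, and the auxin panels hold 2 peaks and 1 peak.

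Each peak was assigned to the nearest of the 4 gene positions, which are known here to about 10 kb (KRT80 from 52.56 to 52.59 Mb, KRT7 from 52.63 to 52.64 Mb, KRT8 at 53.29 Mb and KRT18 at 53.34 Mb). This gave 7 regions nearest KRT80, 11 nearest KRT7, 5 nearest KRT8 and 5 nearest KRT18. An assignment says nothing about which gene a region acts on. For regions 6, 7, 8 and 24 the next gene position was less than 10 kb farther away than the nearest, so their assignment lies within the error of the positions. The same error applies to regions described below as at, within, before or past a gene position. In the RefSeq gene order of GRCh38, 23 other protein-coding keratin genes lie between KRT7 and KRT8, among them the hair keratin KRT81 and the epidermal keratins KRT5 and KRT1. Along the window, regions 1 to 15 held 49 of the 72 peaks, between 52537084 and 52679486. After 155 kb with no peak in any list came regions 16 and 17 with 2 peaks, and farther on region 18 with 4. Regions 19 to 28 held the last 17 peaks, beyond an empty stretch of 374 kb from 52891051 to 53265093. By nearest gene position the KRT80 and KRT7 group had 55 peaks, the 6 of regions 16 to 18 included, and the KRT8 and KRT18 group had 17.

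A broad domain nearest KRT80 carried the highest peak of the window in every list. Region 1 spanned chr12:52537084-52547323, 10240 bp long and 12.7 kb from the nearest edge of the KRT80 position. Its highest peak had a fold of 7.10 with auxin and Nutlin-3a, 4.84 with auxin, 13.7 with water and Nutlin-3a, 11.8 with water, 11.3 in WT cells with Nutlin-3a and 12.3 with DMSO. By fold it ranked 18 of 66 peaks with auxin and Nutlin-3a, 32 of 53 with auxin, 8 of 522 with water and Nutlin-3a, 12 of 463 with water, 15 of 1254 in WT cells with Nutlin-3a and 10 of 1106 with DMSO. The −log10 q of the same peaks were 20.1 and 9.07 in the auxin lists with and without Nutlin-3a, 76.4 and 57.9 in the water lists with and without it, and 142 and 129 in the WT lists with Nutlin-3a and with DMSO. The domain was thus among the 15 highest peaks by fold of each list without auxin, and below the median of the list with auxin alone.

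Width set the domain apart further. Water-treated MED14-AID cells had it in pieces. With Nutlin-3a there were 4 peaks of 912, 5131, 534 and 2097 bp, separated by 370, 132 and 547 bp, and without it 3 peaks of 1053, 5816 and 2831 bp, separated by 189 and 57 bp. The central piece was the second widest peak of the list with water and Nutlin-3a and the widest of the list with water alone. Flanking pieces had folds between 3.17 and 5.73 with Nutlin-3a, and 6.60 and 5.48 with water alone. In WT cells the domain was called as 1 peak of 10160 bp with Nutlin-3a and of 9944 bp with DMSO, the widest peak of each whole list.

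After auxin, what was listed of the domain lay inside its central piece. The peak with auxin and Nutlin-3a ran from 52540651 to 52543006, 2356 bp wide and the widest peak of its list. With auxin alone it ran from 52540765 to 52541681, 917 bp wide, ranking 10 of 53 by width. The flanking pieces of the water lists had no peak in either auxin list. Summits fell close together in all 6 lists, between 52541147 and 52541309, a span of 162 bp. Relative to the WT DMSO summit they lay 13 bp away with auxin and Nutlin-3a, 162 bp with auxin, 132 bp with water and Nutlin-3a, 36 bp with water and 16 bp in WT cells with Nutlin-3a, all on the KRT80 side.

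**Figure D2:**
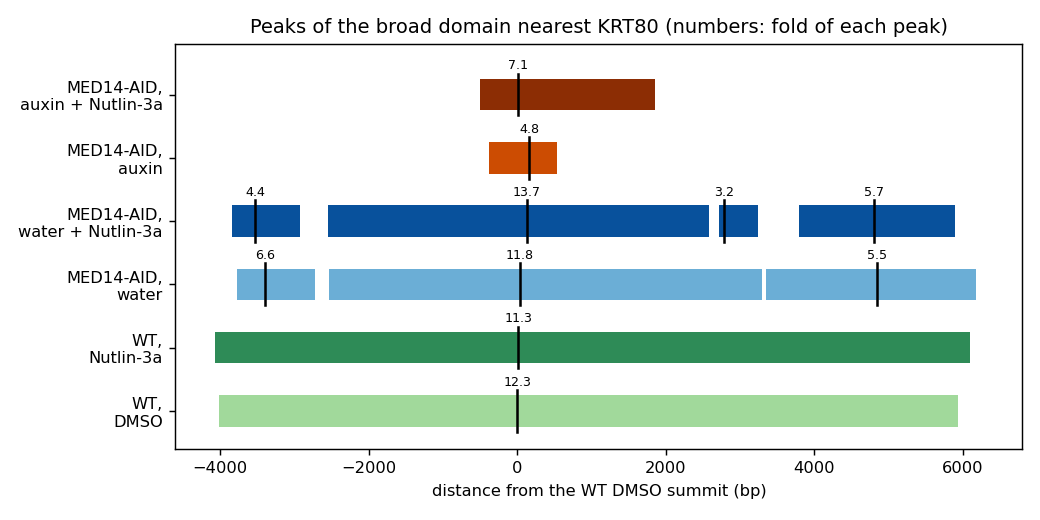
Peaks of region 1 in each list. The x axis is the distance in bp from the WT DMSO summit, bars run from the start to the end of each peak, black ticks mark summits and numbers give the authors' fold. The 6 highest summits lie within 162 bp of each other, and the auxin peaks cover 2356 and 917 bp of the 10240 bp region.

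The other regions nearest KRT80 were lower. Region 4, chr12:52585363-52586382, lay within the KRT80 position and was in all 4 lists without auxin. Its fold was 5.59 with water and Nutlin-3a, 5.19 with water, 4.62 in WT cells with Nutlin-3a and 2.58 with DMSO. By fold it ranked 125 of 522 and 143 of 463 in the water lists with and without Nutlin-3a, 262 of 1254 in the WT Nutlin-3a list and 902 of 1106 in the DMSO list. Its −log10 q was 23.2 in WT cells with Nutlin-3a, against 4.77 with DMSO, the only list without auxin in which it stood below the median fold. Region 7, chr12:52609183-52610244, was in the same 4 lists, with a fold of 5.43 with water and Nutlin-3a, 4.12 with water, 3.98 in WT cells with Nutlin-3a and 3.27 with DMSO.

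Region 3, chr12:52558060-52558889, was the only region of the window that was listed with Nutlin-3a and not without it in both lines. It had a fold of 3.37 with water and Nutlin-3a and 2.96 in WT cells with Nutlin-3a, both below the median of their lists, and no peak in the matching lists without Nutlin-3a or in the auxin lists. Region 5 was in both WT lists (2.66 with Nutlin-3a and 3.00 with DMSO), region 6 in WT cells with Nutlin-3a alone (3.32) and region 2 in WT DMSO alone (2.86).

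Nearest KRT7, region 9 lay 2.9 kb before the gene position used here and region 14 lay past it. The distance of region 9 is within the error of the position, so region 9 may reach the gene. Region 9, chr12:52622692-52627085, had no peak in either auxin list. With water and Nutlin-3a it was 1 peak of 1348 bp with a fold of 5.06, and with water alone 4 peaks of 500 to 1028 bp with folds between 3.38 and 4.13. In WT cells it was 1 peak, 4256 bp wide with a fold of 6.60 with Nutlin-3a and 2179 bp wide with a fold of 6.47 with DMSO. It thus was a set of narrow peaks with water alone and a broad region in WT cells, ranking 17 of 1254 and 73 of 1106 by width with Nutlin-3a and with DMSO. The number of libraries differed between these lists as well, and the cause of the split was not tested.

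Region 14, chr12:52672682-52676671, lay 32.7 kb past the KRT7 position and was in every list except auxin alone. Its fold was 5.64 with auxin and Nutlin-3a, 5.81 with water and Nutlin-3a, 9.86 with water, 7.24 in WT cells with Nutlin-3a and 5.87 with DMSO. With water alone it was the second highest region of the window and ranked 19 of 463 by fold, and it was still missing from the auxin list without Nutlin-3a. With water and Nutlin-3a it ranked 114 of 522, and it was present in the matching auxin list. Its summits spanned 419 bp, from 52674461 with water to 52674880 with water and Nutlin-3a. Next to it, region 15, chr12:52678560-52679486, was in the 4 lists without auxin, with a fold of 4.62 with water and Nutlin-3a, 4.35 with water, 3.15 in WT cells with Nutlin-3a and 2.93 with DMSO.

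Region 18, chr12:52889899-52891051, was the most distant from the 4 gene positions used here, 250 kb past the KRT7 position. Its distance to the other keratin genes between KRT7 and KRT8 was not measured, so it may lie close to one of them. In MED14-AID cells its fold was 3.05 with water and Nutlin-3a and 4.10 with water, ranking 468 of 522 and 286 of 463. In WT cells its fold was 7.55 with Nutlin-3a and 2.96 with DMSO, with −log10 q of 50.6 and 11.0, and its rank by fold was 62 of 1254 and 673 of 1106. Its high rank in the WT Nutlin-3a list thus had no counterpart in the water list with Nutlin-3a, and this difference was not tested. The remaining 7 regions nearest KRT7 were in 1 to 3 lists with folds between 2.12 and 3.83. Region 12, chr12:52629308-52630244, at the KRT7 position, had a fold of 3.50 with water, 3.68 in WT cells with Nutlin-3a and 2.12 with DMSO, and no peak with water and Nutlin-3a. Regions 11, 13 and 17 were in the WT Nutlin-3a list alone, with folds of 3.37, 2.96 and 2.52, and region 16 in the WT DMSO list alone (3.40). Region 10 was in both WT lists, with a fold of 3.47 with Nutlin-3a and 2.87 with DMSO, and region 8 was found with water and Nutlin-3a and nowhere else (3.83).

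The KRT8 and KRT18 end had lower maximum folds than the KRT80 and KRT7 end in each of the 4 lists with peaks there. Neither auxin list had a peak at this end, the list with water and Nutlin-3a had 1 (fold 4.25) and that with water alone had 2 (3.88 and 3.75). In WT cells 9 peaks with Nutlin-3a had folds up to 4.95, and 5 peaks with DMSO had folds up to 3.99. No MED14-AID list had a peak among the 5 regions assigned to KRT8, but region 24, which both water lists hold, lay 19.3 kb from the KRT18 position and 28.7 kb from the KRT8 position, a difference within the error of these positions. Region 22, chr12:53298152-53299129, led the KRT8 group and was in both WT lists, with a fold of 3.97 with Nutlin-3a and 3.99 with DMSO and summits 96 bp apart. The other 4 regions assigned to KRT8 were in 1 WT list each, regions 19, 20 and 21 with Nutlin-3a (folds 2.79, 2.98 and 2.82) and region 23 with DMSO (2.84).

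Nearest KRT18, region 24, chr12:53318732-53320666, was in the 4 lists without auxin, with folds of 4.25 with water and Nutlin-3a, 3.88 with water, 3.05 in WT cells with Nutlin-3a and 3.17 with DMSO. Taking the highest peak of each list, its summits were the most scattered of the window's regions, spanning 802 bp. WT DMSO had it as 2 peaks, with summits at 53319876 for the higher and 53319225 for the lower (fold 2.34). The lower one was nearer the WT Nutlin-3a summit at 53319074, so the span depends on which DMSO peak is taken. Region 26, chr12:53338848-53340406, overlapped the rounded KRT18 position used here. It had a fold of 3.75 with water, 4.95 in WT cells with Nutlin-3a and 3.34 with DMSO, and was absent with water and Nutlin-3a. Region 27, chr12:53342852-53343623, lay 2.85 kb past that position. This distance is within the error of the position, so which of regions 26 and 27 lies closer to KRT18 is not known here. Region 27 was in the WT Nutlin-3a list alone with a fold of 3.91, the highest of the window's peaks found with Nutlin-3a and not with DMSO. Regions 25 and 28 were in that list alone as well, with folds of 2.79 and 2.90.

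**Figure D3:**
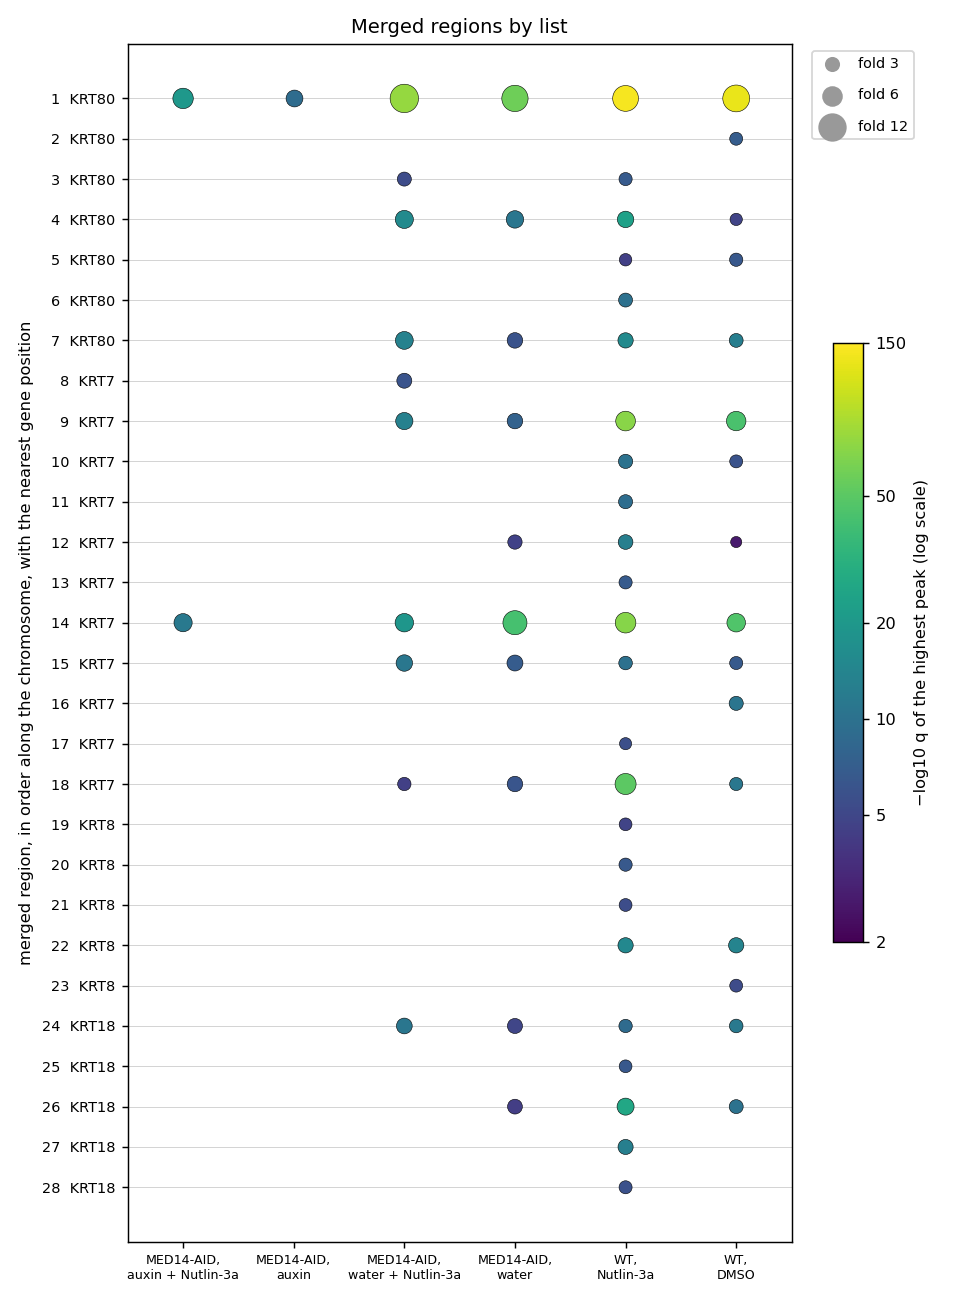
The 28 merged regions in order along the chromosome (rows, with the nearest gene position) by list (columns). Dot area is proportional to the authors' fold of the highest peak, and colour gives its −log10 q on a log scale. Region 1 is present in 6 lists and region 14 in 5, and rows 19 to 23 hold WT dots alone.

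The window's pattern of presence was set against all 1584 merged regions of the 6 lists, side by side and without a test. In all 4 lists without auxin stood 8 of 28 regions (28.6%), against 18.2% of all regions. Any auxin list held 2 of 28 (7.14%), against 5.24%. MED14-AID lists alone held 1 of 28 (region 8, water with Nutlin-3a, fold 3.83), against 5.05%, and WT lists alone held 16 of 28 (57.1%), against 63.8%. A single list held 14 of 28 (50.0%), against 46.0%, and the WT Nutlin-3a list alone held 10 of 28 (35.7%), against 24.2%.

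With Nutlin-3a in WT cells, 11 of the 24 peaks of the window had no overlapping DMSO peak (45.8%, Wilson 95% interval 27.9 to 64.9%), against 35.0% over the whole list. In the other direction 3 of 17 DMSO peaks had no overlapping Nutlin-3a peak (17.6%, 6.19 to 41.0%), against 26.5%. Both whole-list shares lie inside the intervals, which cover the counting of peaks only. Neighbouring peaks of a locus are not independent, so these intervals and those given below are too narrow and are no test. The 11 had folds between 2.52 and 3.91, and none of the high regions 1, 9, 14 and 18 was among them. They included 6 of 9 peaks in the KRT8 and KRT18 group and 5 of 15 in the KRT80 and KRT7 group. The 3 DMSO peaks without a counterpart had folds between 2.84 and 3.40.

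In water-treated MED14-AID cells, 2 of the 13 peaks listed with Nutlin-3a were absent without it (15.4%, 4.33 to 42.2%), against 31.2% of the list. When both lists were limited to a −log10 q of 10 or more, that share was 4 of 8 (50.0%), against 36.0% of the list. In the other direction 4 of 15 peaks without Nutlin-3a were absent with it (26.7%, 10.9 to 52.0%), against 22.5%. The 2 peaks absent without Nutlin-3a are regions 3 and 8. The 4 absent with it are regions 12 and 26 and the outer pieces of region 9, with folds between 3.50 and 4.10. Under auxin, 1 of 2 peaks with Nutlin-3a, that of region 14, was absent without it (48.5% of the list), and 0 of 1 in the other direction (37.7%). Unlike DMSO in WT cells, no vehicle or further 1 h is labelled for the MED14-AID conditions without Nutlin-3a. In these pairs Nutlin-3a and the added hour therefore cannot be told apart.

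Auxin left few peaks in the window. All peaks listed after auxin overlapped a water peak, 2 of 2 with Nutlin-3a (74.2% of the list) and 1 of 1 without (83.0%). Of the water peaks of the window, 2 of 13 with Nutlin-3a overlapped an auxin peak (15.4%, 4.33 to 42.2%), against 9.004% of the list, and 1 of 15 without Nutlin-3a did (6.67%, 1.19 to 29.8%), against 9.50%. Both whole-list shares lie inside these intervals. With 50% reciprocal overlap, 0 of 13 and 0 of 15 were kept with and without Nutlin-3a. No whole-list share is given at that setting, so these counts show nothing particular to the window.

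The kept regions were then placed by strength within the water lists. The central piece of region 1 ranked 10 of 522 by −log10 q with water and Nutlin-3a, where 9 of the 10 peaks at or above its rank overlapped an auxin peak. With water alone it ranked 13 of 463, and 10 of those 13 did. Region 14 ranked 118 with water and Nutlin-3a and was kept, as were 33 of the 118 peaks at or above its rank and 5 of the 51 peaks within 25 ranks of it on either side. With water alone it ranked 24 and was not kept, while 14 of the 24 peaks at or above its rank and 21 of the 49 within 25 ranks were.

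**Figure D4:**
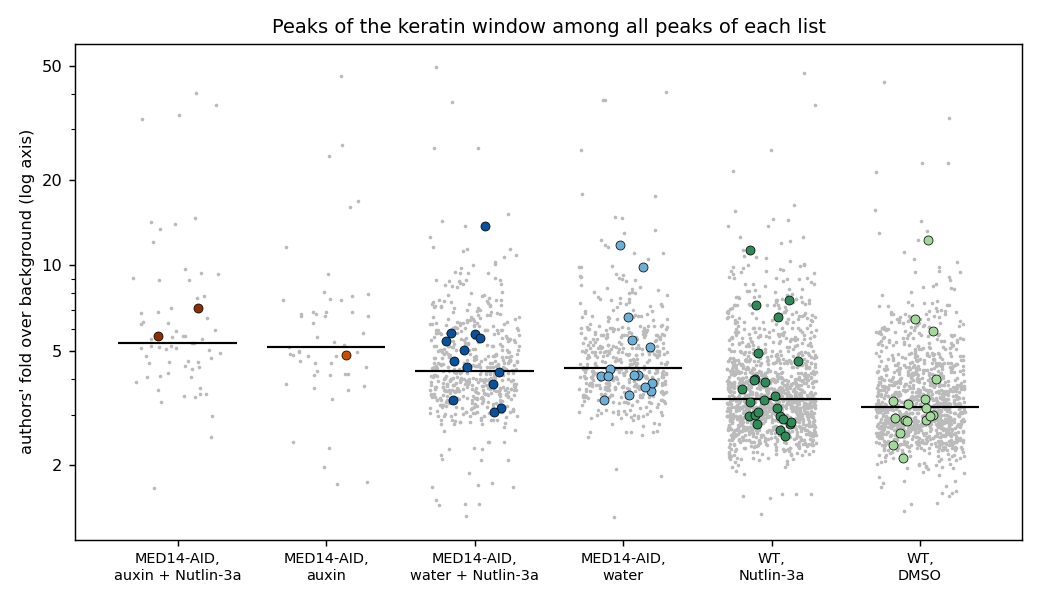
Authors' fold of every peak (y axis, log scale) by list (x axis). Grey points are all peaks of a list, black lines are list medians and coloured points are the peaks of the keratin window, jittered sideways. The domain nearest KRT80 is the highest coloured point of each list. In the lists without auxin the other members lie on both sides of the median.

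In the lists without auxin, the window's peaks lay on both sides of the median fold of their list. Above it stood 8 of 13 with water and Nutlin-3a, 5 of 15 with water, 11 of 24 in WT cells with Nutlin-3a and 7 of 17 with DMSO. The median fold of the window's peaks was 6.37 with auxin and Nutlin-3a (2 peaks), 4.84 with auxin (1 peak), 4.62 with water and Nutlin-3a, 4.12 with water, 3.35 in WT cells with Nutlin-3a and 3.00 with DMSO. Peaks outside the window had a median of 5.27 with auxin and Nutlin-3a, 5.22 with auxin, 4.22 with water and Nutlin-3a, 4.39 with water, 3.41 in WT cells with Nutlin-3a and 3.19 with DMSO. In the highest 10% of their list by fold stood 1 of the window's 13 peaks with water and Nutlin-3a, 2 of 15 with water, 4 of 24 in WT cells with Nutlin-3a and 3 of 17 with DMSO. Of all bases covered by peaks, the window held 6.17% and 2.41% in the auxin lists with and without Nutlin-3a, 3.32% and 4.01% in the water lists with and without it, and 2.70% and 2.28% in the WT lists with Nutlin-3a and with DMSO.

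Between lines, positions were mostly shared from the MED14-AID side. Of the window's water peaks, 12 of 13 with Nutlin-3a were in the WT Nutlin-3a list (86.8% of the list) and 13 of 15 without it were in the WT DMSO list (85.1%). The exceptions were region 8 with Nutlin-3a and the outer pieces of region 9 without it. In reverse, 9 of 24 WT Nutlin-3a peaks (37.5%, 21.2 to 57.3%) were in the water list with Nutlin-3a, against 33.2%, and 11 of 17 WT DMSO peaks (64.7%, 41.3 to 82.7%) were in the water list, against 33.3%. The DMSO share lay above that of the list, whose value is outside the interval. Neighbouring peaks of a locus are not independent, so that interval is too narrow, and when both lists were limited to a −log10 q of 10 or more the share was 2 of 9 (22.2%), against 33.6% of the list at that limit. The cell line, the mock treatment and the number of libraries changed together here and cannot be told apart.

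**Figure D5:**
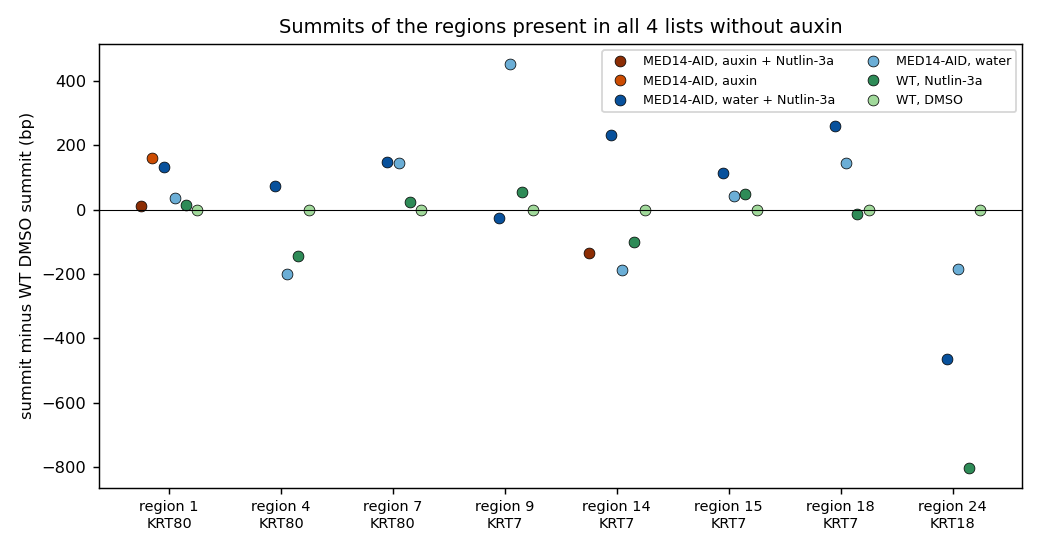
Distance in bp of the summit of the highest peak in each list from the WT DMSO summit (y axis) for the 8 regions that all 4 lists without auxin share (x axis). Region 1 stays within 162 bp in 6 lists, and region 24, which WT DMSO holds as 2 peaks, spreads over 802 bp.

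Summits of overlapping peaks lay close together in WT cells, with a median distance of 59 bp between Nutlin-3a and DMSO over 13 peaks of the window, against 80 bp over 815 peaks of the list. Between the water lists with and without Nutlin-3a the median was 132 bp over 11 peaks, against 111 bp over 359. Between water with Nutlin-3a and WT Nutlin-3a it was 245 bp over 12 peaks, against 99 bp over 453, and between water and WT DMSO it was 185 bp over 13, against 108 bp over 394. The largest distances, 4789 and 4848 bp, came from the flanking pieces of region 1, which were set against the single summit of the wide WT peak.

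As the other keratin genes, the part of the type I cluster on chromosome 17 from 39 to 40 Mb was taken, where by general knowledge KRT20, KRT23, KRT19 and KRT17 lie, KRT19 and KRT20 being type I keratins of gut epithelium. It also holds genes that are no keratins. No peak was listed there in either auxin list. It held 8 peaks with water and Nutlin-3a, 11 with water, 14 in WT cells with Nutlin-3a and 12 with DMSO, in 15 merged regions of which 5 were in all 4 of these lists. The highest fold with water and Nutlin-3a was 13.7 in the chromosome 12 window and 8.80 on chromosome 17, and with water 11.8 in the chromosome 12 window and 9.08 on chromosome 17. In WT cells it was 11.3 in the chromosome 12 window and 8.27 on chromosome 17 with Nutlin-3a, and 12.3 in the chromosome 12 window and 6.40 on chromosome 17 with DMSO. The widest peak on chromosome 17 had 1385 bp with water and Nutlin-3a, 1475 bp with water, 4542 bp in WT cells with Nutlin-3a and 2328 bp with DMSO. Region 1 was the widest peak of each whole WT list, so no other window could hold a WT peak as wide. The chromosome 12 window was also chosen with its peaks known, so its higher folds and widths are no finding.

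The edges of the window did not divide a cluster. The nearest peak outside it was in the WT Nutlin-3a list, 224 kb past the end (fold 3.16), while the last peak inside that list's window was region 28 (fold 2.90). Before the start, the nearest peak was 2342 kb away (fold 2.84), also in WT cells with Nutlin-3a, and the first inside was region 1.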

How the data were processed

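MED1 ChIP-seq and input libraries came from 16 HCT116 samples, 8 of each kind. The authors used Bowtie 0.12.9, MACS2 2.1.2 and the build hg19, as the submitters' processing notes name them, and the settings are not given in the sources used here. Per the labels, the replicates of a WT condition have 1 joint list. The deposited fold is the ratio to background at a peak that the authors' caller gave, and the deposited −log10 values are those of its q. Summits were read as the deposited offset from the start. Depth is unknown, since the lists hold no read counts.

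Peaks overlapping the window were kept, joined into regions where they overlapped by at least 1 bp, and compared between lists. Positions are 1-based. Every region is accounted for. Values in every list are given for the highest region of each gene group, for regions in an auxin list and for those that differ between lists with and without Nutlin-3a. The members and lists were chosen with earlier results of these data known. Wilson 95% intervals cover the counting of peaks only and are too narrow, because neighbouring peaks of a locus are not independent. Alternatives were a gap of 1 kb, 50% reciprocal overlap, −log10 q of at least 5 or 10, equal list lengths, stitching over 10 kb, peaks wholly inside the window and assignment by whole peak. The work was done in Python 3.11.15 (scipy 1.17.1, pandas 2.3.3, numpy 2.4.6, matplotlib 3.10.9). Overlap counts were checked against bedtools 2.31.1, with 0 of 60 different, and on simulated data made from 1106 WT DMSO peaks 300 of 300 copied peaks were recovered. All 4 genes were found in the RefSeq gene table of GRCh38.p14, which was used for names and order only.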

Additional observations from a re-analysis of the deposited data

How the results depend on the processing

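Of 134 values recomputed, 97 stayed within their interval or within 1.5 times the count and 37 did not. Some of the 97 could hardly move, such as counts of 0 under a stricter limit and shares of 1 or 2 auxin peaks. The tally is therefore no measure of robustness. With −log10 q of at least 5, peaks wholly inside the window or assignment by whole peak, none moved past these limits. The share of WT DMSO peaks in the water list came close, with 42.9% (6 of 14) at −log10 q of at least 5. The lower end of its interval was 41.3%, and no whole-list share is given at that setting. With −log10 q of at least 10, the window held 0 peaks with auxin, 8 with water and Nutlin-3a, 5 with water, 11 in WT with Nutlin-3a and 9 with DMSO, and the chromosome 17 window held 4 with water and Nutlin-3a, 4 with water, 9 in WT with Nutlin-3a and 4 with DMSO. At that limit 50.0% (4 of 8) of peaks with water and Nutlin-3a were absent with water, against 36.0% of the list. With auxin and Nutlin-3a, 100% (2 of 2) were absent with auxin, against 44.2% (19 of 43) of the list. Of peaks with water alone, 0% (0 of 5) were kept under auxin, against 13.4% (29 of 217). Of WT DMSO peaks, 22.2% (2 of 9) were in the water list, against 33.6%. Stitching gave 8 regions with water and Nutlin-3a (5 on chromosome 17), 8 with water (6), 14 in WT with Nutlin-3a (6) and 11 with DMSO (6). With 50% reciprocal overlap no auxin peak of the window matched one of the water lists or of the other auxin list. The shares kept under auxin and the shares of auxin peaks found with water were then 0%, with and without Nutlin-3a. For the other auxin list, 100% of auxin peaks were absent from it. The auxin peaks were narrower than the water peaks they overlapped. With Nutlin-3a the widths were 2356 against 5131 bp in region 1 and 672 against 2038 bp in region 14. Without it they were 917 against 5816 bp. The region 14 peak with auxin and Nutlin-3a had no peak with auxin alone at an overlap of 1 bp either. Reciprocal overlap of 50% also gave 53.8% (7 of 13) and 46.7% (7 of 15) of water peaks in the WT lists with and without Nutlin-3a. Of WT DMSO peaks, it gave 41.2% (7 of 17) in the water list. A gap of 1 kb gave 100% for both shares of water peaks in WT lists (13 of 13 and 15 of 15). Equal lengths compare fewer peaks by construction. They kept 100% (1 of 1) of water peaks with Nutlin-3a and 50.0% (1 of 2) without it under auxin. They gave 53.3% (8 of 15) of water peaks in WT DMSO. In reverse they gave 75.0% (6 of 8) of WT Nutlin-3a peaks in water with Nutlin-3a and 83.3% (5 of 6) of WT DMSO peaks in water. Whole-list shares at 50% reciprocal overlap, a gap of 1 kb and equal lengths are not given. The shares at these settings therefore show nothing particular to the window. No paired analysis was possible because each WT list pools its replicates and each MED14-AID list is 1 library, and no replicate could be left out for the same reason. The auxin lists hold 2 peaks and 1 peak of the window, so their percentages rest on these alone, and the unknown depth limits every count. For the remaining shifts, the cause was not tested.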
